A study of Mus musculus with 8 samples.

Results

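The polyamine metabolism genes are 10 mouse genes for the synthesis, regulation and breakdown of putrescine, spermidine and spermine: Odc1, Amd1, Amd2, Srm, Sms, Oaz1, Oaz2, Azin1, Sat1 and Smox. A probe was taken as belonging to them when its RefSeq accession is that of a listed gene. By this rule 20 of the 55681 probes on the array belong to 9 of the 10 genes, out of 20660 genes that could be named, and Amd1 was matched by no accession. The genes were proposed with the ratios of these arrays known and so count as selected on the genotype ratios. Their ratios in gastrocnemius, in TA and the difference of these ratios are therefore given as a description. Calls of the members by limma or SAM on these ratios are printed as part of that description, and nothing is read from them. Their level in one muscle against the other was not used in the choice and is tested.

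Transcripts were measured in gastrocnemius and tibialis anterior (TA) muscle of mice with 1 inactivated copy of Eif6 (Eif6+/-) and of wild-type (WT) littermates, all male C57BL6 mice 8 to 16 weeks old. There were 8 two-colour Agilent arrays, 4 for gastrocnemius and 4 for TA, and each carried labelled RNA of 1 Eif6+/- mouse in Cy5 and of 1 WT mouse in Cy3 according to the labels. The dyes were not swapped, so dye and genotype cannot be told apart, and the same holds of muscle and row on the slide. With 4 arrays a muscle, their number limits how precise a value is. A log2 ratio is Eif6+/- over WT on 1 array, and a level is the log2 of a normalized spot intensity. All 20 probes passed the filter on dim probes in both muscles, and 19 were well above background in both channels on all 8 arrays. The exception is the Azin1 probe A_52_P117313, whose WT channel was well above background on 3 of 4 gastrocnemius and 2 of 4 TA arrays.

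Polyamines are small, positively charged molecules that bind nucleic acids and are needed for growth and for translation. Ornithine decarboxylase makes putrescine, and S-adenosylmethionine decarboxylase supplies the aminopropyl groups with which spermidine synthase and spermine synthase lengthen it. In skeletal muscle the synthesis of polyamines is known to respond to androgens and to the growth and loss of muscle mass, and spermidine is also the source of hypusine, a modified residue of the translation factor eIF5A.

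The promoters of Odc1, Smox and Amd2 are shown because the brightest probes of these genes had the widest spread of log2 ratios over the 8 arrays among the 9 genes with a probe (SD 0.57, 0.59 and 0.78), and that of Amd1 because it is the listed gene without a probe. The sequences are the 250 bases before the transcription start from RefSeq, build GRCm38.p6, at chr12:17544623-17544872 on the + strand for Odc1, chr2:131491612-131491861 on the + strand for Smox, chr10:35711892-35712141 on the - strand for Amd2 and chr10:40302189-40302438 on the - strand for Amd1. Each is written 5′ to 3′, and capitals mark the GC box, the letters GGGCGG on either strand.
Odc1: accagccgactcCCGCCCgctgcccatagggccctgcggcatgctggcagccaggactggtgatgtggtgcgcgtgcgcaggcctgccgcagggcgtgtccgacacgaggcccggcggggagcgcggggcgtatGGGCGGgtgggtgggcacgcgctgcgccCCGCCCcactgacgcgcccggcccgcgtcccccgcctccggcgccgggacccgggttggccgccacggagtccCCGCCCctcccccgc
Smox: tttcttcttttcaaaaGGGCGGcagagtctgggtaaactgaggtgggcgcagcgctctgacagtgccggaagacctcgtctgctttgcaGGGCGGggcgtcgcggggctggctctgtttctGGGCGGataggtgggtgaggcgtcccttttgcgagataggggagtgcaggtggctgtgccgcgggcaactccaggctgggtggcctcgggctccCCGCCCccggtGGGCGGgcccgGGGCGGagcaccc
Amd2: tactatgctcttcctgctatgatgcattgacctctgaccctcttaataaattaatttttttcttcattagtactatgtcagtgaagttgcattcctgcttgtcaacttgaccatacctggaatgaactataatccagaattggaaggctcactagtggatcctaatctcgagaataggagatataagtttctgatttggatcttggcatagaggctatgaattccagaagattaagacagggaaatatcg
Amd1: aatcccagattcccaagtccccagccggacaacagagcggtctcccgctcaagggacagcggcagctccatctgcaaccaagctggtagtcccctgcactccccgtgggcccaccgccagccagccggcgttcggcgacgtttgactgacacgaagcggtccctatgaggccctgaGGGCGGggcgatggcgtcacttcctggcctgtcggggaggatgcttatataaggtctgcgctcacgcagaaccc
The Odc1 promoter holds 4 GC boxes and is 80% G and C, and the Smox promoter holds 6 and is 68% G and C. Amd1 has 1 GC box and 64.4% G and C. The Amd2 promoter has no GC box and 37.6% G and C, below the median of 52.4% over the 32851 promoters of the table. Entries were found for 8 of the 10 genes, 9 in all since Sms has a pair of starts; Srm and Azin1 have no entry. The GC box is in 6 of the 9 entries and in 32.7% of all promoters. The letters CCAAT, searched on both strands, are in 3 of 9 entries and 33.8% of all promoters. CACGTG, the E-box, is in 1 entry, a start of Sms, and in 6.02% of all promoters. TATAAA is in 0 of 9 entries and 12.4% of all promoters, which says only that these letters are not in these windows. The entries also hold 50 bases after the start. Within these, Amd1 and Amd2 share a run of 48 bases that begins at base 3 of Amd1 and base 1 of Amd2. The run reaches the end of the Amd1 entry, so the shared stretch may be longer. Probes named Amd2 may thus not tell transcripts of these genes apart, and no probe sequences were at hand.

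Eif6 itself was measured by a pair of probes. The log2 ratios of its brightest probe, A_52_P85864, were −0.97, −1.15, −0.89 and −1.06 in gastrocnemius pairs 1 to 4 and −1.22, −1.03, −0.95 and −0.80 in TA pairs 1 to 4. The mean fell by 1.02 ± 0.11 (SD, n = 4 arrays; adjusted p 0.0239 by limma) in gastrocnemius. In TA the mean was −0.999 ± 0.17 (SD, n = 4 arrays; adjusted p 0.0108 by limma). The other probe, A_55_P1989013, gave means of −1.13 and −1.12. Eif6 was thus lower in the Eif6+/- channel on each of the 8 arrays by both probes. On leaving out 1 array the TA call was kept in 4 of 4 cases, and the gastrocnemius call was lost without pair 3 or without pair 4, with means from −1.06 to −0.97. The place of these probes in the gene, against the part that was inactivated, is not known.

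Odc1 encodes ornithine decarboxylase, the first enzyme of polyamine synthesis. Its brightest probe, A_55_P1995173, had log2 ratios of −0.55, 0.99, 0.43 and −0.22 in gastrocnemius pairs 1 to 4, with a mean of 0.16 ± 0.69 (SD, n = 4). In TA the ratios were 0.19, 1.12, 0.73 and 0.37, with a mean of 0.60 ± 0.41 (SD, n = 4). Pairs 2 and 3 were above 0 in both muscles, pair 2 was the highest in both, and pairs 1 and 4 were below 0 in gastrocnemius alone. The other Odc1 probes gave smaller means. A_52_P436238 averaged 0.01 in gastrocnemius and 0.11 in TA, and A_55_P1982818 averaged −0.33 and 0.02. Both of these probes were below 0 on TA pair 1 (−0.32 and −0.59), where the brightest probe was above 0, so the Odc1 probes share the high place of pair 2 and differ in where they centre.

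Amd2 encodes an S-adenosylmethionine decarboxylase. In gastrocnemius the log2 ratios of its brightest probe, A_55_P2014506, were −0.73, 0.63, 0.23 and −0.23, with a mean of −0.02 ± 0.59 (SD, n = 4). In TA they were 0.78, 1.47, 0.14 and 1.48, with a mean of 0.97 ± 0.64 (SD, n = 4), a 1.95-fold ratio. The gastrocnemius ratios lie on both sides of 0 and the TA ratios above it, and the ranges overlap because TA pair 3 is low and gastrocnemius pair 2 is high. The gastrocnemius mean changes sign with the scaling: it is up to 0.12 by loess alone, by Agilent's processed signals and in the authors' table. The probe A_55_P2014511 gave −1.16, 0.43, 0.06 and −0.68 in gastrocnemius and 0.22, 1.01, −0.03 and 0.92 in TA. The probe A_55_P2121252 gave −0.24, 0.59, 0.19 and −0.21 in gastrocnemius and 0.16, 0.97, 0.07 and 1.11 in TA. All 3 probes put pairs 2 and 4 highest and pair 3 lowest in TA, and pair 2 highest and pair 1 lowest in gastrocnemius.

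Srm encodes spermidine synthase. Its brightest probe, A_51_P300709, had log2 ratios of −0.03, −0.19, −0.76 and −0.36 in gastrocnemius, mean −0.33 ± 0.31 (SD, n = 4). In TA they were −0.30, −0.30, −0.28 and −0.39, mean −0.32 ± 0.05 (SD, n = 4). Srm was below 0 on all 8 arrays, with like means in both muscles and a wider spread in gastrocnemius, where pair 3 was lowest. Its other probe, A_55_P2002376, was also below 0 on all 8 arrays, with means of −0.26 and −0.22. Sms encodes spermine synthase, and its brightest probe, A_55_P2115995, gave −0.04, 0.34, 0.11 and −0.06 in gastrocnemius and 0.08, 0.29, −0.22 and 0.65 in TA. These values fall on both sides of 0 in each muscle, with means of 0.09 and 0.20. The other Sms probes had means of −0.03 and 0.11 (A_55_P1998309) and of −0.21 and 0.12 (A_55_P2025911) in gastrocnemius and TA.

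Oaz1 and Oaz2 encode antizymes, which bind ornithine decarboxylase and direct it to degradation. The Oaz1 probe A_55_P2035454 had log2 ratios of −0.03, −0.28, −0.20 and 0.16 in gastrocnemius and 0.16, −0.11, 0.07 and 0.21 in TA. Its means were −0.09 and 0.08, and the TA mean changes sign with loess alone, Agilent's processed signals and the authors' table, down to −0.03. The brightest Oaz2 probe, A_55_P1993599, had ratios of 0.05, 0.27, 0.33 and 0.10 in gastrocnemius and 0.55, 0.17, −0.06 and 0.37 in TA, with means of 0.19 and 0.26. The dimmer Oaz2 probe, A_52_P90289, pointed the other way, with 0.18, −0.60, −0.37 and −0.28 in gastrocnemius and −0.33, −0.36, −0.34 and −0.08 in TA. Its means were −0.27 and −0.28, so the probes of Oaz2 give no common direction. Azin1 encodes the antizyme inhibitor, which binds antizymes in place of ornithine decarboxylase. Its brightest probe, A_51_P234544, had ratios of −0.67, 0.31, 0.09 and −0.30 in gastrocnemius and −0.18, −0.05, 0.04 and −0.33 in TA, with means of −0.14 and −0.13. The other Azin1 probes averaged −0.16 and 0.01 (A_52_P24631) and 0.03 and 0.16 (A_52_P117313), so the Azin1 probes lie on both sides of 0.

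Sat1 encodes spermidine/spermine N1-acetyltransferase, which acetylates polyamines for breakdown or export. Its probe A_55_P1989321 had log2 ratios of −0.58, 0.62, 0.00 and 0.42 in gastrocnemius, mean 0.12 ± 0.53 (SD, n = 4). In TA they were 0.56, 0.36, 0.50 and 0.14, mean 0.39 ± 0.19 (SD, n = 4). The TA values are all above 0 and lie within the range of the gastrocnemius values, of which pair 1 is far below 0. Smox encodes spermine oxidase, which turns spermine back into spermidine. Its brightest probe, A_55_P1998892, gave −0.88, 0.28, −0.20 and −0.38 in gastrocnemius, mean −0.29 ± 0.48 (SD, n = 4). In TA it gave −0.46, 0.93, 0.07 and 0.55, mean 0.27 ± 0.60 (SD, n = 4). That TA mean was 0.15 by loess alone, 0.14 by Agilent's processed signals and 0.16 in the authors' table. With the median of the Smox probes the mean was 0.03. On leaving out 1 array it ran from 0.05 (without pair 2) to 0.52 (without pair 1). The dimmer Smox probe, A_66_P107703, gave −1.09, −0.07, −0.69 and −0.78 in gastrocnemius and −1.21, 0.52, −0.35 and 0.20 in TA, with means of −0.66 and −0.21. By both probes pair 1 was the lowest and pair 2 the highest in each muscle, and the means of the probes differ in sign in TA.

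**Figure D1:**
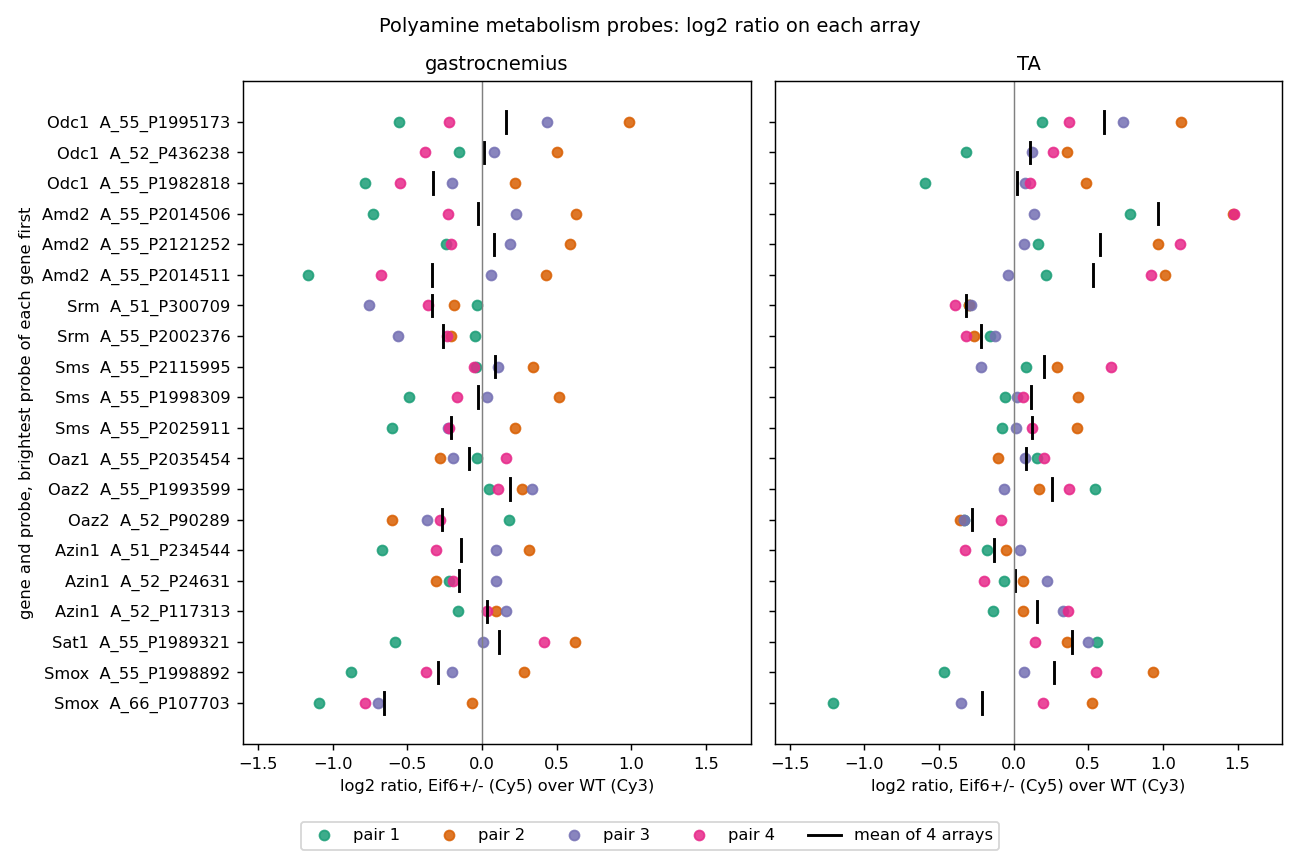
Log2 ratio of Eif6+/- over WT (horizontal axis) for each of the 20 polyamine metabolism probes (vertical axis), with a point for each array coloured by pair and a bar at the mean of 4 arrays. In gastrocnemius the points of pair 1 tend to lie to the left and those of pair 2 to the right, and in TA the brightest Amd2 probe reaches 1.48.

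A gene is called when its brightest probe has an adjusted p under 0.1 by limma over all kept probes, and the following counts of members are printed beside the share of all genes with nothing read from them, since the ratios chose the genes. In gastrocnemius 0 of 9 members were called by limma (2 at an unadjusted p under 0.05, and 0 by SAM), beside 9.88% of 12607 genes called higher and 5.54% called lower. Over all genes of gastrocnemius 2183 were higher and 1474 lower at an unadjusted p under 0.05, and SAM called 2145 higher and 1015 lower. In TA 3 members were called higher (Amd2, Odc1 and Sat1) and 1 lower (Srm), beside 8.98% of 12381 genes called higher and 7.29% called lower. SAM called 4 members in TA, beside 1486 genes higher and 1118 lower over all 12381. With the median of a gene's probes the TA mean of Odc1 is 0.14 in place of 0.60 and it is not called. Of the dimmer probes, Smox A_66_P107703 was called lower in gastrocnemius, and in TA those of Amd2 were called higher and Oaz2 A_52_P90289 and Srm A_55_P2002376 lower. On leaving out single TA arrays, 0 members were called by limma without pair 1 or without pair 2. The calls over all genes then numbered 53 higher and 15 lower, and 338 higher and 195 lower, against 1112 and 902 with all 4 arrays. Without pair 1 the TA means of Amd2, Odc1, Sat1 and Srm were 1.03, 0.74, 0.33 and −0.32. Without pair 2 they were 0.80, 0.43, 0.40 and −0.33, against 0.97, 0.60, 0.39 and −0.32 with all 4 arrays. In gastrocnemius 0 genes of the whole array were called without pair 3 or without pair 4, against 1246 higher and 699 lower, and Srm was called without pair 1. The median of the 9 members was −0.02 in gastrocnemius and 0.26 in TA, and that of all genes was 0.02 in both. Under loess normalization alone the split over all TA genes was 1366 higher and 748 lower.

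The difference of the ratios, gastrocnemius minus TA, was below 0 for all 9 members by their brightest probes, with a median of −0.17 beside 0.01 over all genes. It was −0.99 for Amd2 (SE 0.33), −0.57 for Smox (SE 0.30) and −0.44 for Odc1 (SE 0.31). The other 6 members lay between −0.27 (Sat1) and −0.01 (Azin1), and those of Azin1 and Srm change sign with Agilent's processed signals. The side of 0 also depends on single arrays: the difference was 0.029 for Oaz2 without TA pair 1, 0.035 for Sms without TA pair 4 and 0.12 for Srm without gastrocnemius pair 3. For Azin1 it was above 0 without gastrocnemius pair 1 (0.16) or pair 4 (0.041) and without TA pair 2 (0.012) or pair 3 (0.045). Without gastrocnemius pair 1 that of Odc1 was −0.20 and that of Sat1 −0.042. By limma 0 of 9 members were called (1 at an unadjusted p under 0.05), beside 0% of 12200 genes called higher and 0% called lower (574 and 424 at an unadjusted p under 0.05). No other tool was run on this difference.

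By the brightest probes of the 9 genes, pair 1 had the lowest ratio in gastrocnemius for 6 genes and pair 2 the highest for 6. In TA there was no such order, with the highest ratio on pairs 1 to 4 for 2, 2, 2 and 3 genes. Over the 20 probes pair 1 was lowest for 13 and pair 2 highest for 13 in gastrocnemius, and in TA pair 2 was highest for 8 and pair 4 for 6. Probes of 1 gene share their target and the 20 probes were read from the same 8 arrays, so these counts are a description of the arrays. Among the brightest probes of the 9 genes, the same sign on all 4 arrays was seen in gastrocnemius for Oaz2 above 0 and Srm below 0, and in TA for Amd2, Odc1 and Sat1 above 0 and Srm below 0.

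The channels of each array show which side of a ratio varied. The WT levels of the brightest Amd2 probe in TA pairs 1 to 4 were 14.88, 14.12, 15.51 and 14.29, and the Eif6+/- levels were 15.65, 15.59, 15.65 and 15.77. The Eif6+/- levels thus spanned 0.18 and the WT levels 1.39, and the high ratios of pairs 2 and 4 fall on the arrays with the lowest WT levels. The dimmer probe A_55_P2014511 had the same pattern at a lower intensity, with WT levels of 12.07, 11.28, 12.41 and 11.33 and Eif6+/- levels of 12.28, 12.29, 12.37 and 12.25. In gastrocnemius the Amd2 WT levels were 16.41, 15.36, 15.67 and 15.79 and the Eif6+/- levels 15.68, 16.00, 15.90 and 15.56. There the genotypes overlap, and the lowest ratio, of pair 1, falls on the highest WT level. Over all 12200 genes the median range of the 4 levels in TA was 0.28 for WT and 0.24 for Eif6+/-, and the WT range was the larger for 59.6% of genes. In gastrocnemius these values were 0.33, 0.23 and 69.6%.

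Smox and Sms had the same order of spread in TA. The WT levels of Smox in TA were 14.83, 13.52, 14.91 and 13.78 and its Eif6+/- levels 14.36, 14.45, 14.98 and 14.33, with ranges of 1.39 and 0.65. As for Amd2, pairs 2 and 4 had the low WT levels. For Sms the range in TA was 0.84 in WT and 0.04 in Eif6+/-. Odc1 and Azin1 had the larger range in the Eif6+/- channel, Azin1 with 0.85 against 0.54. The Odc1 WT levels in TA were 11.45, 10.99, 11.86 and 11.01 and its Eif6+/- levels 11.64, 12.11, 12.59 and 11.38, with ranges of 0.86 and 1.21. The WT level was lowest on TA pair 2 for 11 of the 20 probes and highest on TA pair 3 for 13, and the Eif6+/- level was highest on TA pair 3 for 14. Srm was narrow in TA, where the WT levels of 8.71 to 8.84 lay above the Eif6+/- levels of 8.42 to 8.51 with no overlap.

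**Figure D2:**
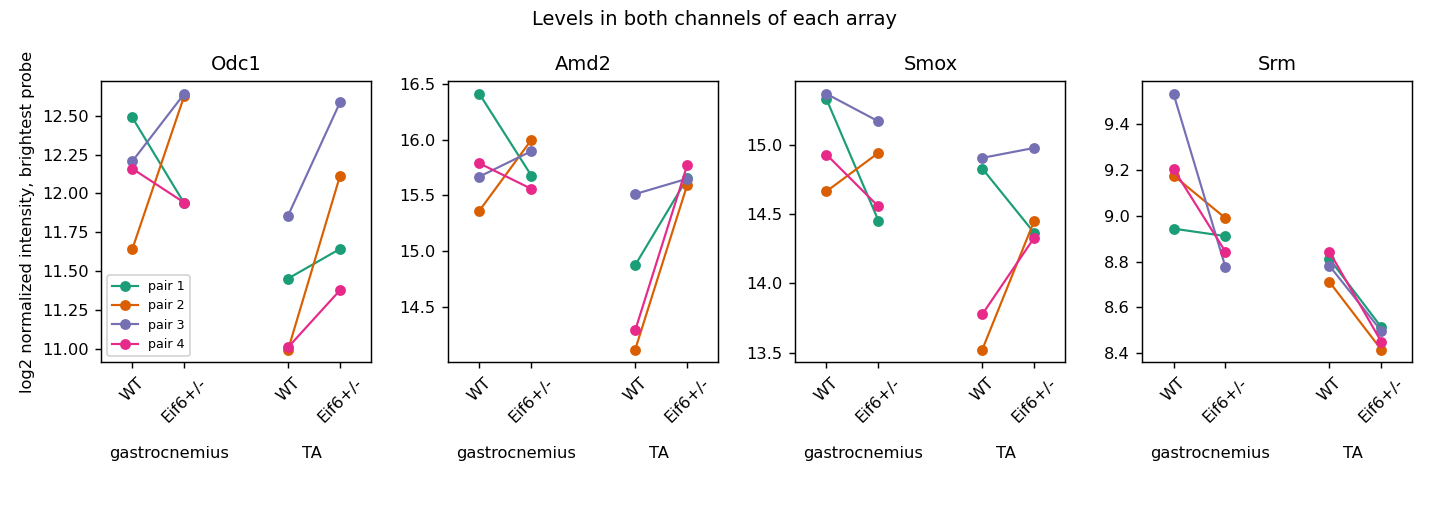
Log2 normalized intensity (vertical axis, a scale for each gene) of the brightest probes of Odc1, Amd2, Smox and Srm in the WT and Eif6+/- channels of each array (horizontal axis), with lines joining the channels of an array. The Eif6+/- levels of Amd2 in TA lie together between 15.59 and 15.77 while its WT levels run from 14.12 to 15.51.

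The level of a gene in gastrocnemius against TA was taken as the mean of both channels. It asks whether the muscles differ on average over the genotypes, not whether they differ in each. For the brightest Amd2 probe the levels were 16.04, 15.68, 15.78 and 15.67 in gastrocnemius pairs 1 to 4 and 15.26, 14.86, 15.58 and 15.03 in TA pairs 1 to 4. The muscles did not overlap, with TA pair 3 nearest to gastrocnemius. The mean levels were 15.79 ± 0.17 and 15.18 ± 0.31 (SD, n = 4), and the difference of 0.61 (95% interval 0.29 to 0.93; adjusted p 0.0152 by limma) is 1.53-fold. The other Amd2 probes differed by 1.04 and 1.01 (adjusted p 0.00273 and 0.00136 by limma), so all 3 were higher in gastrocnemius. The muscles are bulk tissue, in which fewer cells of a type and less RNA per cell cannot be told apart.

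Srm levels were 8.93, 9.08, 9.15 and 9.02 in gastrocnemius and 8.66, 8.56, 8.64 and 8.65 in TA. These did not overlap either. The means were 9.05 ± 0.10 and 8.63 ± 0.04 (SD, n = 4), a difference of 0.42 (95% interval 0.28 to 0.55; adjusted p 0.00195 by limma). The other Srm probe differed by 0.29 (adjusted p 0.0159 by limma), again higher in gastrocnemius.

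Odc1 levels were 12.21, 12.13, 12.42 and 12.05 in gastrocnemius and 11.55, 11.55, 12.22 and 11.19 in TA. TA pair 3 lay within the gastrocnemius range and the other TA arrays lay below it. The means were 12.20 ± 0.16 and 11.63 ± 0.43 (SD, n = 4), and the difference was 0.58 (95% interval 0.18 to 0.98; adjusted p 0.0463 by limma). The other Odc1 probes were also higher in gastrocnemius, by 0.80 and 0.52 (adjusted p 0.00425 and 0.0571 by limma). The call of the brightest probe was lost on leaving out 1 array in 4 cases: without gastrocnemius pair 3 the difference was 0.50 (adjusted p 0.104), without TA pair 1 it was 0.55 (adjusted p 0.101), without TA pair 2 it was 0.55 (adjusted p 0.109) and without TA pair 4 it was 0.43 (adjusted p 0.110).

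Smox levels were 14.89, 14.80, 15.27 and 14.74 in gastrocnemius and 14.60, 13.99, 14.94 and 14.05 in TA. The ranges overlap, with TA pair 3 above 3 of the gastrocnemius arrays. The means were 14.93 ± 0.24 and 14.39 ± 0.46 (SD, n = 4), and the difference was 0.53 (95% interval 0.09 to 0.98; adjusted p 0.0859 by limma). Its dimmer probe differed by 0.76 (adjusted p 0.0528 by limma). The call was lost without gastrocnemius pair 1 (0.54, adjusted p 0.133), pair 2 (0.57, adjusted p 0.112) or pair 3 (0.42, adjusted p 0.189) and without TA pair 2 (0.40, adjusted p 0.213) or pair 4 (0.42, adjusted p 0.206), so it rests on most of the arrays.

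The level of 4 of the 9 members was called higher in gastrocnemius, beside 13.1% of 12200 genes called higher and 20.3% called lower, and 10 of the 20 probes were called. The median difference of the members was 0.25 and that of all genes −0.03. The other 5 members were not called. Azin1 differed by 0.25 (95% interval −0.05 to 0.55; adjusted p 0.212 by limma) and was called without TA pair 3 (0.40, adjusted p 0.0115). Oaz1 differed by 0.10 (95% interval −0.03 to 0.23; adjusted p 0.251 by limma). The intervals were −0.17 to 0.33 for Sat1, −0.18 to 0.19 for Sms and −0.28 to 0.10 for Oaz2. The genes called were thus Odc1, Amd2, Srm and Smox, of which Odc1 and Smox lose their call without some of the arrays. With all arrays present both also lose it without a filter on dim probes. Of the 4, only Smox loses it by normexp with offset 0, Agilent's processed signals, the WT channel alone or a threshold of 0.05. In the Eif6+/- channel alone Amd2, Odc1 and Smox lose it and only Srm keeps it.

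**Figure D3:**
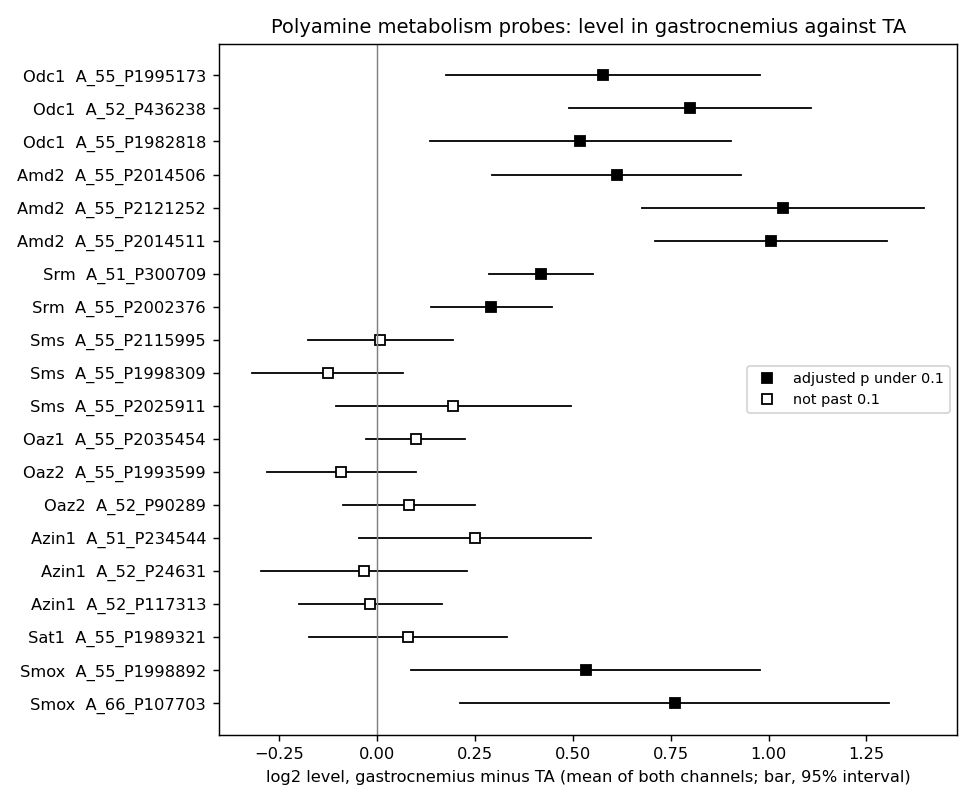
Difference of level between gastrocnemius and TA (horizontal axis, log2, mean of both channels) for each of the 20 polyamine metabolism probes (vertical axis), with bars for the 95% interval. Filled squares mark the 10 probes called by limma, all of Odc1, Amd2, Srm and Smox and all higher in gastrocnemius.

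The level difference was also taken in each channel alone. In the WT channel it was 1.11 for Amd2, 0.80 for Odc1, 0.43 for Srm and 0.82 for Smox. In the Eif6+/- channel it was 0.12 for Amd2, 0.36 for Odc1, 0.41 for Srm and 0.25 for Smox. Srm was near-equal in both channels, and the other genes had the larger value in the WT channel. A value of a channel alone holds part of the difference of the genotype ratios, on which the genes were selected, so these values and the gap between the channels are a description. For that gap 0 of 9 members were called by limma (1 at an unadjusted p under 0.05).

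Beyond the 10 members, 25 genes of polyamine metabolism were listed by function. In gastrocnemius 19 could be tested, of which 3 were called higher and 3 lower, beside 9.88% and 5.54% of all genes, with a median of 0.04. In TA 18 could be tested, of which 2 were called higher and 1 lower, beside 8.98% and 7.29% of all genes, with a median of 0.00. Of the difference of the ratios 0 of 18 were called by limma (1 at an unadjusted p under 0.05). By function, the calls in gastrocnemius were 2 higher and 1 lower of 7 in the methionine cycle and salvage, 1 lower of 4 in hypusination and 1 higher and 1 lower of 5 in transport. In TA they were 1 higher of 7, 1 lower of 4 and 1 higher of 4. Ornithine supply, with 1 gene tested, and further catabolism and antizyme, with 2, had 0 calls by limma in both muscles (at an unadjusted p under 0.05, 0 and 1 in gastrocnemius and 0 and 0 in TA). Agmat, Azin2, Mat1a and Oaz3 were not well above background on enough arrays in either muscle, nor was Slc12a8 in TA.

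Eif5a encodes the protein that carries hypusine, made from spermidine. Its log2 ratios were −0.41, −1.09, −0.76 and −0.55 in gastrocnemius and −0.97, −0.58, −0.42 and −0.23 in TA. They were below 0 on all 8 arrays. The mean fell by 0.70 ± 0.30 in gastrocnemius (SD, n = 4; adjusted p 0.0323 by limma) and by 0.55 ± 0.31 in TA (SD, n = 4; adjusted p 0.0348 by limma). Of the other genes of hypusination, Dhps, Dohh and Eif5a2, none was called in either genotype comparison by limma, and over the list of 4 the counts at an unadjusted p under 0.05 were 2 in gastrocnemius and 1 in TA, Eif5a included. The vesicular polyamine carrier Slc18b1 was called higher in both muscles, by 0.25 in gastrocnemius (adjusted p 0.0855 by limma) and 0.35 in TA (adjusted p 0.0433 by limma), and was above 0 on all 8 arrays. Slc3a2, linked to polyamine export, was called lower in gastrocnemius (−0.38, adjusted p 0.0711 by limma) and not in TA (−0.21, adjusted p 0.194 by limma), and the difference between the muscles was −0.17 (adjusted p 0.788 by limma). In the salvage of methylthioadenosine, the by-product of Srm and Sms, Apip was called higher (0.26, adjusted p 0.0978 by limma) and Adi1 lower (−0.32, adjusted p 0.0967 by limma) in gastrocnemius. Enoph1 was called higher in TA (0.23, adjusted p 0.0714 by limma). Mat2b, a subunit for the making of S-adenosylmethionine, was called higher in gastrocnemius (0.25, adjusted p 0.0909 by limma). None of these gastrocnemius calls was made by limma without pair 3 or without pair 4, when 0 genes of the array were called, and those of Apip, Mat2b and Slc18b1 were also lost without pair 1 or without pair 2. Adi1 and Slc3a2 were lost without pair 2 as well. In TA the Eif5a call was lost without pair 1 or pair 2 (means from −0.66 to −0.41 over the arrays left out), that of Slc18b1 without pair 1, 2 or 3 (0.29 to 0.41), and that of Enoph1 without each of the 4 arrays in turn (0.22 to 0.24).

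By level, 3 of 18 listed genes were called higher in gastrocnemius and 4 lower, beside 13.1% and 20.3% of all genes, so the list is not set apart by these counts. Atp13a3, a polyamine transporter, was higher by 0.31 (adjusted p 0.0122 by limma). Adi1 was higher by 0.40 (adjusted p 0.0170 by limma) and Paox, the oxidase of acetylated polyamines, by 0.22 (adjusted p 0.0482 by limma). The genes lower in gastrocnemius were Sat2 (−0.30, adjusted p 0.00462 by limma), Mat2b (−0.24, adjusted p 0.0389 by limma), Apip (−0.18, adjusted p 0.0855 by limma) and Dohh (−0.17, adjusted p 0.0559 by limma). Sat2 and Paox, both of catabolism, thus differed in opposite directions. Atp13a3, Adi1 and Sat2 were called in 8 of 8 cases on leaving out 1 array. Mat2b was lost without TA pair 2 (−0.30 to −0.21 over the arrays left out) and Paox without gastrocnemius pair 1 or TA pair 3 (0.18 to 0.26). Dohh was called in 4 of 8 cases (−0.20 to −0.14), lost without gastrocnemius pair 2 or 3 or TA pair 2 or 4. Apip was called in 2 of 8 (−0.24 to −0.15), those without gastrocnemius pair 4 and without TA pair 1.

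Genes of acute responses, a list chosen with results of these arrays known, are given beside the members. Of 26 listed, 24 could be tested, with 9 called higher and 1 lower in gastrocnemius (9.88% and 5.54% over all genes), 6 higher and 1 lower in TA (8.98% and 7.29% over all genes), and medians of 0.20 and 0.25. By level 2 were higher in gastrocnemius and 6 lower (13.1% and 20.3% over all genes). Dusp1 had ratios of 1.09, 0.18, 0.59 and 0.94 in gastrocnemius and 1.58, 0.23, 0.66 and 1.44 in TA, and Fos had 0.96, −1.19, −0.36 and 1.18 in gastrocnemius and 2.64, −1.73, 0.19 and 2.34 in TA. Pairs 1 and 4 were high and pair 2 low for both genes. Fkbp5 of the same list, named here after its values were seen, had the other order, with −0.67, 1.097, 0.12 and −0.23 in gastrocnemius and −0.39, 0.69, −0.16 and 0.13 in TA. Like Odc1 and Smox it was highest on pair 2 and lowest on pair 1 in both muscles. Over the 24 genes the highest TA ratio was on pair 1 for 14 and on pair 4 for 7, and the highest gastrocnemius ratio on pair 1 for 10 and on pair 4 for 9, so Fkbp5 is among the few others. The ratios of Slc25a25 were 2.17, 1.24, −0.03 and 1.22 in gastrocnemius and 2.35, 1.30, 0.00 and 1.37 in TA, near-equal on arrays of the same number. Those of Sdc4 were 1.52, 1.45, 1.75 and 0.12 in gastrocnemius and 1.54, 1.43, 1.42 and 0.00 in TA, again alike by number. Amd2 did not share this, being −0.73 on gastrocnemius pair 1 and 0.78 on TA pair 1. The labels do not say whether arrays of the same number hold the same mice. The part of acute responses in the ratios of the polyamine genes was not tested.

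**Figure D4:**
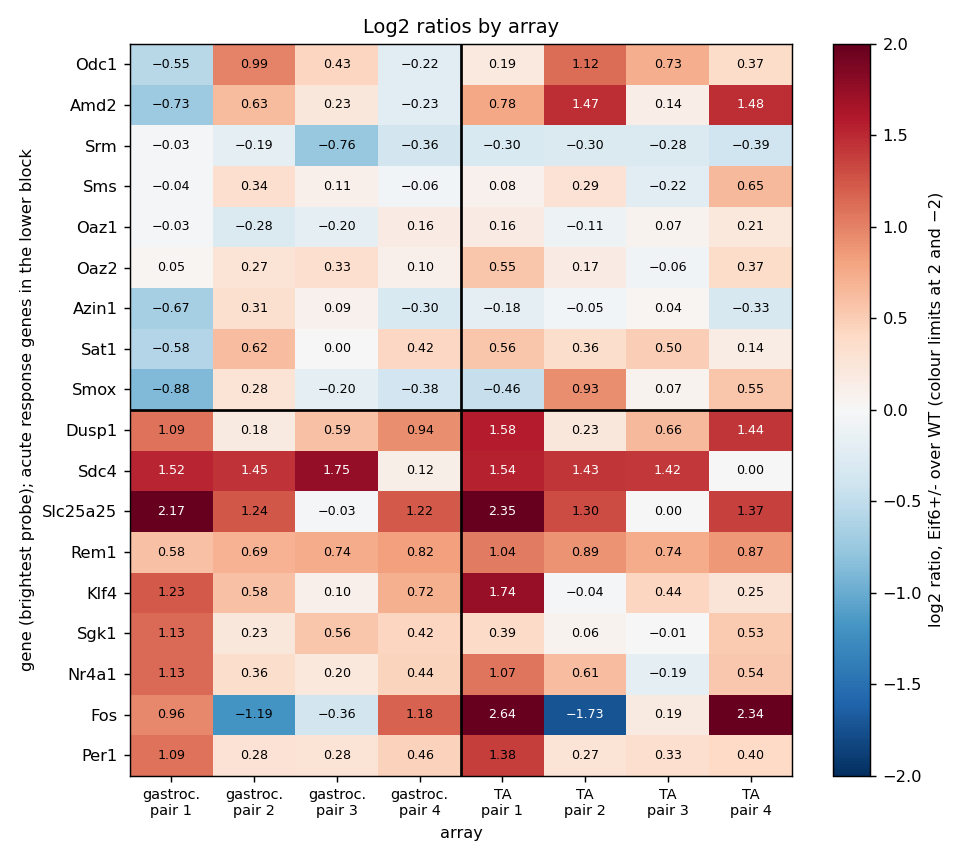
Log2 ratio of Eif6+/- over WT on each of the 8 arrays (horizontal axis) for the brightest probe of the 9 polyamine metabolism genes and, under the line, of 9 acute response genes (vertical axis), with the value in each cell and colour from −2 to 2. Klf4, Sgk1, Nr4a1, Fos and Per1 were taken for the largest mean ratios in a muscle among the rest of their list. High values under the line thus follow in part from that choice. Many of the acute response genes shown are high on pair 1, and Fos runs from −1.73 to 2.64 in TA.

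For the 3 members with the widest spread, the genes of most similar ratios were found by the root mean square of the differences over the 8 arrays among 12191 genes other than the members. Nearest to Amd2 were Mstn (0.42), Vmn1r65 (0.51) and Myh4 (0.51), where the median over all genes was 0.89. Mstn had ratios of 0.00, 0.72, 0.03 and 0.19 in gastrocnemius and 1.00, 0.77, 0.23 and 1.17 in TA. It shares with Amd2 the low place of TA pair 3 and lacks the low value of gastrocnemius pair 1. Nearest to Smox were 1700001O22Rik (0.18), Cdk19 (0.26) and Slc38a4 (0.28), against a median of 0.60. Nearest to Odc1 were Itpr1 (0.26), Vmn1r65 (0.26) and Trnp1 (0.27), against a median of 0.69. A likeness of this kind says nothing of shared function or control.

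Markers of the cells in the samples are given beside the polyamine genes, as sums of intensity over each list. The skeletal muscle fibre list was well above background for 7 of 7 genes, with Pvalb the brightest and summed levels of 19.94 in gastrocnemius and 19.97 in TA. Within that list Myh1 was lower in gastrocnemius (−0.99, adjusted p 0.00205 by limma). The IIA fibre marker Myh2 had a mean level of 16.29 in gastrocnemius and 14.86 in TA. Slow fibre markers (6 of 6, brightest Myl3) summed to 16.05 and 14.07, and 5 of 6 were called higher in gastrocnemius. Over all genes 13.1% were called higher there and 20.3% lower, and the counts of the next lists are to be read beside these shares. Fat cell markers (5 of 5, brightest Fabp4) summed to 14.86 and 13.93, with 4 of 5 called higher in gastrocnemius, and connective tissue markers (5 of 5, brightest Col1a2) to 17.23 and 16.31, with 3 of 5. Further lists summed to 14.38 and 14.26 for red blood cells (4 of 4, brightest Hba-a1), to 11.13 and 10.70 for leukocytes (4 of 6, brightest Cd74, where Cd68 has no named probe and S100a8 was not well above background) and to 10.09 and 10.43 for endothelium (2 of 2, brightest Cdh5). Among the leukocyte markers Ptprc and S100a9 could not be tested in gastrocnemius, and Lyz2 was higher there than in TA (0.79, adjusted p 0.0577 by limma). Of the lists given, markers of slow and IIA fibres, fat, connective tissue and leukocytes had summed levels higher in gastrocnemius by 0.43 or more, and the genes called higher there include Amd2, Odc1, Srm and Smox. The part of any of the lists in the levels of the polyamine genes was not tested.

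The markers also differed between the mice of an array. The log2 ratio of the Myh2 intensities, Eif6+/- over WT, was 3.92, 0.52, 1.41 and 0.62 in gastrocnemius and 1.44, −0.04, 0.34 and −1.55 in TA. The ratio of the slow fibre sums was 3.24, −1.09, 0.19 and −0.19 in gastrocnemius and 0.01, −0.52, −0.06 and −1.46 in TA. Gastrocnemius pair 1, the array with the lowest Amd2, Smox, Odc1, Sat1 and Azin1 ratios in that muscle, thus had the highest Myh2 and slow fibre ratios. TA pair 4, where Amd2 was at 1.48, had the lowest of both marker ratios in TA. Amd2 was near-equal, at 1.47, on TA pair 2, where the marker ratios were −0.04 and −0.52. On TA pair 1, with the highest of both marker ratios, Odc1 and Smox were at their lowest in TA and Sat1 at its highest. The lowest Amd2 ratio in TA was on pair 3. For connective tissue the ratios of sums were 0.02, 0.05, −1.36 and 0.33 in gastrocnemius and 0.26, −0.83, 2.14 and −0.20 in TA, and for fat cells they were −0.49, −0.11, −0.42 and −1.40 in gastrocnemius and 0.01, −0.01, 0.68 and −0.20 in TA. Pair 3 was the extreme array for connective tissue in both muscles, in opposite directions, the lowest in gastrocnemius and the highest in TA. On pair 3 Srm had its lowest ratio in gastrocnemius (−0.76) and its highest in TA (−0.28). Amd2 on pair 3 was at 0.23 in gastrocnemius, neither lowest nor highest, and at 0.14 in TA, its lowest there. Ratios of sums ran from −0.79 to 0.05 in gastrocnemius and −1.21 to −0.35 in TA for red blood cells, and from −2.08 to −0.47 and −0.88 to −0.22 for leukocytes. They ran from −0.62 to −0.02 and −0.27 to 0.22 for endothelium and from −0.06 to 0.15 and −0.11 to 0.16 for skeletal muscle fibre. Within the latter, Myh1 was called higher in gastrocnemius (0.96, adjusted p 0.0520 by limma; 1.87 on pair 1) and Ckm lower (−0.37, adjusted p 0.0579 by limma; below 0 on all 4 arrays), while Myh4, among the genes nearest to Amd2, was called higher in TA (0.80, adjusted p 0.0118 by limma). Of the other lists given, those with calls by limma in gastrocnemius were fat cells (2 of 5 lower) and leukocytes (1 of 2 lower), beside 5.54% of all genes called lower. In TA they were slow fibre (3 of 6 lower), fat cells (2 of 5 higher), red blood cells (4 of 4 lower), leukocytes (1 of 4 lower) and endothelium (1 of 2 lower). Over all genes of TA 8.98% were called higher and 7.29% lower, and in lists this short 1 call says little. The part of the mix of cells in the ratios of Amd2, Odc1, Smox and the other members was not tested.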

How the data were processed

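The authors deposited, for each of the 8 arrays, scanner output with spot intensity in both channels, not normalized, beside Agilent's processed signals. The authors also deposited a table of log2 ratios of Cy5 over Cy3; its values differ by at most 0.0074 from loess-normalized ratios of uncorrected intensities, so it is not quantile-normalized, although the methods name that step. In gastrocnemius its columns had medians of 0.00257 (pair 1), 0.000831 (pair 2), −0.00441 (pair 3) and 0.00375 (pair 4), and in TA of 0.00138 (pair 1), −0.000366 (pair 2), 0.00288 (pair 3) and 0.00212 (pair 4). The methods name Cy3 labelling alone, whereas the labels give Cy5 for Eif6+/- and Cy3 for WT, and the labels were followed. Median spot intensities were used because the files hold no mean.

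Intensities were corrected by normexp (offset 50), normalized by loess within arrays and by quantiles over all 16 channels. A probe was kept in a muscle if, on each of the 4 arrays, either channel was well above background: 23790 probes in gastrocnemius, 23383 in TA and 22757 in both. RefSeq accessions named 27235 of 28685 probes with an accession, of 55681 probes, for 20660 genes, without probe sequences or coordinates. Tests used lmFit and eBayes of limma 3.58.1 (R 4.3.3), with Benjamini-Hochberg adjustment over all kept probes and a threshold of 0.1; figures used matplotlib 3.10.9 (Python 3.11.15). SAM, the test the methods name, was written from its description as a one-class test over all sign changes of the arrays. The code was tested on simulated data.

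A gene was counted by its brightest probe. The text names Eif6, every member and, of the further polyamine lists (ornithine supply, methionine cycle and salvage, further catabolism and antizyme, hypusination, transport), at most the 4 largest called genes in each direction. It also names the 3 genes nearest to each of the 3 members of widest spread. Of the acute response list, Dusp1, Slc25a25, Sdc4 and Rem1 were named in the plan, and Rem1 is shown in the figure alone. Fos was taken for its large mean ratio in TA. Genes given beside these were chosen after their values were seen. The members and lists were chosen with earlier results of these data known. Alternatives were loess alone (loess and Aquantile for levels), quantile normalization alone, uncorrected background or normexp with offset 0, the authors' table, Agilent's processed signals, no filter or a stricter filter, the median of a gene's probes, each array left out, pair number as a replicate block, each channel alone, SAM and a threshold of 0.05. Some listed genes and markers are not reported here.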

Additional observations from a re-analysis of the deposited data

Results flagged for a closer look

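Among 104 groups of 4 arrays, made of the ratios of the polyamine metabolism and Eif6 probes and the levels of the brightest of each gene, 2 had a value far from the other 3; chance flags about 1 in 20 groups. The dimmer Oaz2 probe, A_52_P90289, had a log2 ratio of −0.083 on TA pair 4, where the other TA arrays lay between −0.36 and −0.33. The brightest Srm probe, A_51_P300709, had a log2 ratio of −0.39 on TA pair 4, where the other TA arrays lay between −0.30 and −0.28. Both values are on the same side of 0 as those of the other arrays. The cause was not tested.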

How the results depend on the processing

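Of the members, 4 were called in TA, beside 1112 genes higher and 902 lower of 12381. With Agilent's processed signals 2 were (Sat1 and Srm), beside 510 genes higher and 331 lower. The means of Amd2 and Odc1 were then 0.70 and 0.66. With the median of a gene's probes 3 were, beside 866 genes higher and 837 lower. The one lost was Odc1, whose mean went from 0.60 to 0.14. On leaving out each TA array the count ran from 0 (without pair 1 or pair 2) to 5 (without pair 3). The calls over all genes were 53 higher and 15 lower without pair 1, 338 and 195 without pair 2, and 735 and 450 without pair 3. In gastrocnemius 0 were called by limma, beside 1246 genes higher and 699 lower of 12607. At an unadjusted p under 0.05 there were 2, beside 2183 higher and 1474 lower, and by SAM 0, beside 2145 higher and 1015 lower. On leaving out each array 0 to 1 were called by limma, the 1 being Srm without pair 1, beside 1048 higher and 724 lower. For the difference of the ratios 0 of 9 members were called by limma in each alternative (1 at an unadjusted p under 0.05 with all arrays). For the level 4 members were called, beside 1602 genes higher and 2475 lower of 12200. Without a filter on dim probes 2 were (Amd2 and Srm), beside 1423 genes higher and 2168 lower of 20660. In the Eif6+/- channel alone 1 was (Srm), beside 815 genes higher and 1244 lower of 12200. On leaving out each array 2 to 5 were called. There were 2 without gastrocnemius pair 3 (1388 genes higher and 2000 lower), TA pair 2 (1124 and 1782) or TA pair 4 (1261 and 1938). There were 5 without TA pair 3 (1434 and 2221). A channel alone holds part of the genotype ratios that chose the members. Srm was called in all 19 alternatives for the level, Amd2 in 18, Odc1 in 13 and Smox in 9. The cause of these changes was not tested.

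Levels that changed sign were those of Sms, at −0.039 with Agilent's processed signals, −0.13 with the median of its probes, −0.013 without gastrocnemius pair 1, −0.011 without TA pair 2, −0.063 without TA pair 4 (0.072 at most, without TA pair 3) and −0.049 in the Eif6+/- channel alone, of Azin1, at −0.033 with the median of its probes, and of Sat1, at −0.058 in the Eif6+/- channel alone. None of these genes was called with all arrays by limma (adjusted p 0.956, 0.212 and 0.666), and the cause was not tested.

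Pair number as a replicate block gave the same count of 4 members for the level and 0 for the difference of the ratios by limma. Over all probes kept in both muscles, with each muscle's mean subtracted, the correlation across probes between arrays of the same number was −0.36 to 0.09 for ratios and −0.27 to 0.24 for levels, and 0 and 2 of 4 arrays were most similar to their own number. Of the correlations by number 0 of 4 ratios and 3 of 4 levels were over 0.1. Whether a number stands for the same mice in both muscles cannot be told from these values, and values without the block take the arrays as independent.

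Signal over background limits dim probes: 38.7% to 48.6% of probes were well above background in a channel, and listed genes below that are given no value. With 4 arrays per muscle, single arrays decide several calls. Dye and genotype cannot be told apart here, nor can muscle and row on the slide, and whether Amd2 probes also read Amd1 transcripts was not tested. Marker intensities differ between arrays. Levels of transcripts say nothing of polyamine amounts or enzyme activity, which were not measured.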
